A study of Homo sapiens with 15 samples.

Results

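The Polycomb repressive complex genes examined here are EZH1, EZH2, EED, SUZ12, RBBP4, RBBP7, JARID2, MTF2, BMI1 and CBX2. They were taken as a named list and matched through their Ensembl identifiers to 10 of the 57820 genes in a count table from A673 cells. The matching used no measured value, but the list was drawn up with earlier results of these data known. All 10 passed the filter on low counts, with between 298 and 9268 counts in a library.

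A673 is an established cell line derived from a Ewing sarcoma, a tumor driven by the fusion transcription factor EWS/FLI. RNA-seq was performed on 15 libraries, with 5 conditions of 3 libraries. In iLuc cells the shRNA targeted luciferase and the cDNA vector was empty, so they kept endogenous EWS/FLI (endo-EF). iEF cells received an shRNA directed at the 3′ UTR of the fusion transcript, and an empty vector. WT-EF, Δ22 (del22 in the labels) and DAF cells carried this same shRNA together with a cDNA that it does not target. The cDNA encoded wild-type EWS/FLI in WT-EF cells, an EWS/FLI without the EWS portion in Δ22 cells, and an EWS/FLI with tyrosines of the EWS portion changed to alanine in DAF cells. Retrovirus with the shRNA was added on day 1 and retrovirus with the cDNA on day 5, and drug selection with 2 µg/mL puromycin and 400 µg/mL hygromycin B ended on day 16. Every library thus comes from a single cell line after retroviral transduction and double selection, and fewer cells of a kind in a culture cannot be told apart from less RNA per cell.

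Polycomb group proteins keep developmental genes silent. Polycomb repressive complex 2 (PRC2) methylates lysine 27 of histone H3, and Polycomb repressive complex 1 (PRC1) binds this mark and ubiquitinates histone H2A. EZH2 is the catalytic subunit of PRC2 in dividing cells, and in Ewing sarcoma it is known as a gene activated by EWS/FLI that keeps the tumor cells from differentiating.

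The shRNA target was examined first. FLI1, whose transcript is counted both from the fusion and from the cDNAs, measured 49.4 ± 2.62 CPM (counts per 1000000 counts of the scaled library; mean ± SD, n = 3) in iLuc cells and 14.6 ± 1.44 CPM in iEF cells. It measured 17.6 ± 1.39 CPM in WT-EF, 31.2 ± 6.09 CPM in Δ22 and 24.3 ± 2.64 CPM in DAF cells. Whether a cDNA transcript gives as many FLI1 counts as a fusion transcript with its 3′ UTR was not tested. All WT-EF libraries lay above the iEF libraries, by a log2 fold change of 0.27 that did not pass the quasi-likelihood test of edgeR after Benjamini-Hochberg adjustment over all genes (edgeR adjusted p = 0.0538). Of the 5 Ewing sarcoma marker genes tested (NKX2-2, NR0B1, STEAP1, PRKCB and BCL11B), 5 were higher in iLuc than in iEF, 5 in WT-EF, 1 in Δ22 and 4 in DAF. Over all genes tested, 19.5% were higher in iLuc, 12.9% in WT-EF, 0.472% in Δ22 and 5.00% in DAF. The defining surface marker CD99 had 0 to 3 counts in each library and 0 to 1 on the row of its second chromosomal copy, so it could not be used as a check. Of the markers of other cell types, PTPRC had 7 to 31 counts in a library, CD3E 0 to 1, KRT5 0 to 3, EPCAM 3 to 33, VWF 0 to 22 and KRT8 235 to 664. EPCAM was higher than in iEF (3 to 5 counts) in iLuc (21 to 33 counts, edgeR adjusted p = 7.51e-05) and in WT-EF (12 to 13 counts, edgeR adjusted p = 0.0239), and VWF was lower in WT-EF (0 to 3 counts against 6 to 11 in iEF, edgeR adjusted p = 0.0248). The summed level of these markers was 7.06 to 21.6 CPM over all libraries, and its part in the Polycomb values was not tested. Library totals ran from 28659475 to 41859880 counts with a median of 32943231, and each of the 15 pairs of libraries within a condition differed by more than counting noise on average over genes.

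To show the DNA around the start sites of genes that differed together, promoters were searched on both strands for the E2F-type letters TTTCGCGC, TTTGGCGC and TTTCCCGC, for the tandem repeat GGAAGGAA and for the ETS-type letters ACCGGAAG and ACAGGAAG. The windows run from 250 bases before to 50 bases after a start site in RefSeq (GRCh38.p14), and 9 of the 10 genes had one, CBX2 being the exception. TTTGGCGC was found in EZH2, in the variant PRC1 gene MGA and in 0.652% of 35116 windows overall. TTTCCCGC was found in SUZ12, MTF2 and the related gene PHF19, and in 1.63% of all windows. Neither TTTCGCGC (0.515% of windows), GGAAGGAA (3.67%), ACCGGAAG (2.17%) nor ACAGGAAG (2.99%) was found in any of the 9. Among other PRC1 genes, ACCGGAAG was found in PCGF1 and KDM2B, and ACAGGAAG in PCGF2. The letters overlap no other searched motif in the 4 stretches below, which are shown because EZH2, SUZ12 and MTF2 were higher with endo-EF while PHF19 was lower. Each stretch was placed by an exact match to GRCh37, the build of the counts, and reads 5′ to 3′ on the strand of its gene with the motif in capitals. The motif starts at position 1 from the start site in EZH2 (chr7:148581364-148581393, minus strand), at position 5 in MTF2 (chr1:93544834-93544863, plus strand, motif on the opposite strand), at position -189 in SUZ12 (chr17:30263826-30263855, plus strand) and at position -152 in PHF19 (chr9:123639600-123639629, minus strand, motif on the opposite strand). A match is a description of letters and does not show that a factor binds there.
EZH2: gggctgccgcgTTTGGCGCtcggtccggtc
MTF2: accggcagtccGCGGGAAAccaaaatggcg
SUZ12: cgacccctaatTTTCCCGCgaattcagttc
PHF19: gtcaataattcGCGGGAAAacgcgaaaaag

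Knockdown of EWS/FLI was accompanied by lower levels of most of these genes and by a higher level of EED. Against iEF, 7 of the 10 genes were higher in iLuc cells (19.5% of 28793 genes tested were higher) and 1 was lower (22.1% of genes tested). Restoring WT-EF was accompanied by higher EZH2, JARID2, MTF2 and CBX2, that is 4 of 10 genes (background 12.9%), and by lower RBBP7 (1 of 10, background 17.0%). In DAF cells only JARID2 was higher than in iEF (1 of 10, background 5.00%), while SUZ12, RBBP4 and RBBP7 were lower (3 of 10, background 6.19%). In Δ22 cells none of the 10 was called higher (background 0.472%) or lower (background 0.830%) by edgeR, with 1 higher and 4 lower at an unadjusted p under 0.05 and 2 lower by DESeq2. The median log2 fold change over the 10 genes was 0.47 for iLuc, 0.21 for WT-EF, -0.16 for Δ22 and -0.26 for DAF, where the median over all genes tested was 0.04, -0.01, 0.01 and 0.00. These 4 comparisons share the same 3 iEF libraries and are therefore not independent of each other.

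**Figure D1:**
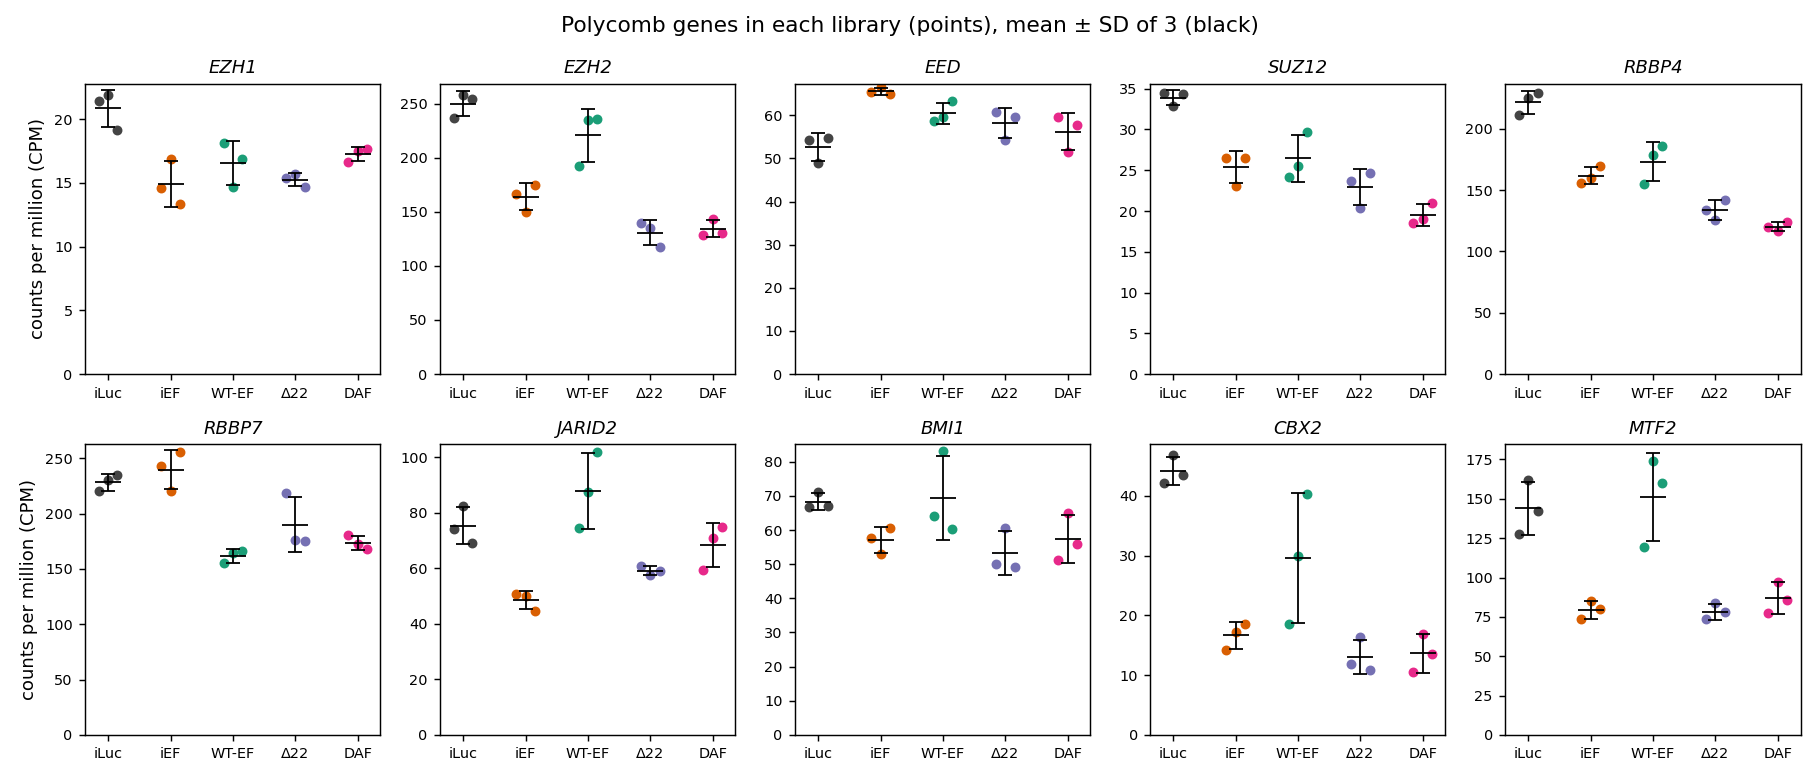
CPM (y axis, counts per 1000000 of the scaled library, from 0) of the 10 Polycomb genes in each of 15 libraries, grouped by condition on the x axis, with points for libraries and black bars for the mean ± SD of 3. All iLuc and WT-EF points of EZH2 and MTF2 lie above all others, the WT-EF points of CBX2 spread from 18.6 to 40.3 and reach into the iEF range, and RBBP7 was high in iLuc and iEF.

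EZH2, the main methyltransferase of PRC2 (GRCh37 chr7:148504349-148581413, minus strand), measured 237, 258 and 255 CPM in the 3 iLuc libraries and 167, 150.0 and 174 CPM in the iEF libraries. WT-EF libraries held 192, 234 and 235 CPM, Δ22 libraries 139.6, 135 and 118 CPM, and DAF libraries 129, 143 and 131 CPM. All iLuc and all WT-EF values lay above all iEF values, and all Δ22 and DAF values lay below them. EZH2 was 1.52-fold higher in iLuc than in iEF (log2 fold change 0.61 ± 0.10 SE, edgeR adjusted p = 0.00015) and 1.34-fold higher in WT-EF (0.43 ± 0.10, edgeR adjusted p = 0.00413). The shortfall of Δ22 (log2 fold change -0.32 ± 0.10, edgeR adjusted p = 0.131) and of DAF (-0.29 ± 0.10, edgeR adjusted p = 0.0782) below iEF did not pass the test. WT-EF exceeded DAF 1.64-fold (edgeR adjusted p = 9.36e-05). The difference between WT-EF and iEF no longer passed when replicate 2 of every condition was left out (adjusted p = 0.113).

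EZH1, the alternative catalytic subunit that prevails in resting cells (chr17:40852293-40897067, minus strand), was the lowest of the 10 per transcript length in iLuc and iEF. Its values were 21.5, 21.9 and 19.2 CPM in iLuc, 14.6, 16.9 and 13.3 CPM in iEF, 18.1, 14.7 and 16.9 CPM in WT-EF, 15.4, 15.7 and 14.7 CPM in Δ22 and 16.6, 17.5 and 17.6 CPM in DAF. The iLuc libraries stood above all 12 others, and the remaining conditions lay close together. The difference between iLuc and iEF passed (log2 fold change 0.48 ± 0.11, edgeR adjusted p = 0.00297), though not without replicate 1 of every condition (adjusted p = 0.0704). For WT-EF against iEF the log2 fold change was 0.16 ± 0.11 and for DAF against iEF 0.21 ± 0.11, and neither passed (edgeR adjusted p = 0.355 and 0.286).

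EED, which reads trimethylated lysine 27 for PRC2 (chr11:85912254-85989855, plus strand), was the only one of the 10 that was lower with endo-EF. It measured 54.3, 49.0 and 54.7 CPM in iLuc and 65.3, 66.5 and 64.9 CPM in iEF (log2 fold change -0.32 ± 0.08, edgeR adjusted p = 0.00376). WT-EF held 58.6, 59.6 and 63.2 CPM, Δ22 60.8, 54.2 and 59.5 CPM, and DAF 59.5, 51.5 and 57.6 CPM. The iEF libraries were thus the 3 highest of all 15, but none of the 3 rescue conditions differed from iEF by the test (edgeR adjusted p = 0.297, 0.331 and 0.0800 for WT-EF, Δ22 and DAF). The call for iLuc was lost without replicate 2 of every condition (adjusted p = 0.0856).

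SUZ12, the scaffold of PRC2 (chr17:30264026-30328057, plus strand), measured 34.5, 32.8 and 34.3 CPM in iLuc and 26.5, 23.1 and 26.5 CPM in iEF. WT-EF libraries held 24.2, 25.5 and 29.7 CPM, Δ22 libraries 23.7, 20.4 and 24.6 CPM, and DAF libraries 18.5, 19.0 and 21.0 CPM. The iLuc libraries were the highest, WT-EF overlapped iEF, and DAF lay below iEF without overlap. SUZ12 was higher in iLuc than in iEF (log2 fold change 0.42 ± 0.09, edgeR adjusted p = 0.00192) and lower in DAF than in iEF (-0.38 ± 0.09, edgeR adjusted p = 0.0176). WT-EF did not bring it to the iLuc level, since it stayed lower than in iLuc (-0.36 ± 0.09, edgeR adjusted p = 0.0136), and it exceeded DAF by 0.44 ± 0.09 (edgeR adjusted p = 0.00257). The call for iLuc against iEF was lost without replicate 2 of every condition (adjusted p = 0.0518), and that for DAF against iEF was kept in 14 of 24 alternative analyses and that for WT-EF against iLuc in 17. SUZ12 has pseudogene copies, and whether its counts share reads with them was not tested.

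RBBP4 and RBBP7 are closely related histone chaperones that PRC2 shares with other chromatin complexes. Both were lower in DAF than in iEF by a similar amount, whereas only RBBP4 was called in iLuc and only RBBP7 in WT-EF. RBBP4 (chr1:33116743-33151812, plus strand) measured 211, 225 and 229 CPM in iLuc, 156, 159.7 and 169.6 CPM in iEF and 155, 179 and 186 CPM in WT-EF. Δ22 libraries held 134, 126 and 142 CPM and DAF libraries 120.3, 116 and 124 CPM. The order iLuc, then iEF and WT-EF overlapping, then Δ22, then DAF left no overlap between the other neighbors. It was higher in iLuc than in iEF (log2 fold change 0.45 ± 0.07, edgeR adjusted p = 0.000149), lower in DAF than in iEF (-0.43 ± 0.07, edgeR adjusted p = 0.00200) and lower in WT-EF than in iLuc (-0.36 ± 0.07, edgeR adjusted p = 0.00335). The WT-EF level was 1.07 times that of iEF, which did not pass (edgeR adjusted p = 0.377), and 1.44 times that of DAF, which did (edgeR adjusted p = 0.000114). The call for DAF against iEF was lost without replicate 2 of every condition (adjusted p = 0.0523), and that for WT-EF against iLuc was kept in 20 of 24 alternatives (highest adjusted p = 0.125).

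RBBP7 (chrX:16857406-16888485, minus strand) measured 220.2, 230.2 and 235 CPM in iLuc and 244, 220.4 and 255 CPM in iEF. Its values were 155, 164 and 166 CPM in WT-EF, 218, 176 and 176 CPM in Δ22 and 181, 172 and 168 CPM in DAF. Every library of the 3 conditions that received an EWS/FLI cDNA lay below every library of the empty-vector conditions, and iLuc overlapped iEF. RBBP7 was lower in WT-EF than in iEF (log2 fold change -0.56 ± 0.09, edgeR adjusted p = 0.000252) and than in iLuc (-0.50 ± 0.09, edgeR adjusted p = 0.00150), and lower in DAF than in iEF (-0.46 ± 0.09, edgeR adjusted p = 0.00439). In Δ22 the difference of -0.34 ± 0.09 from iEF missed the threshold (edgeR adjusted p = 0.0891). The calls for WT-EF against iEF and against iLuc were kept in all 24 alternatives, and the one for DAF was lost only without replicate 2 of every condition (adjusted p = 0.0506).

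JARID2, an accessory subunit that helps to recruit PRC2 (chr6:15246300-15522273, plus strand), was called higher than in iEF in iLuc, WT-EF and DAF cells. It measured 74.2, 82.5 and 69.2 CPM in iLuc, 50.7, 50.0 and 44.8 CPM in iEF and 74.5, 87.4 and 102 CPM in WT-EF. Δ22 libraries held 60.8, 57.5 and 59.0 CPM and DAF libraries 59.4, 71.0 and 74.7 CPM. The iEF libraries were the 3 lowest of all 15. JARID2 was 1.55-fold higher in iLuc (log2 fold change 0.63 ± 0.11, edgeR adjusted p = 0.000375), 1.80-fold higher in WT-EF (0.85 ± 0.11, edgeR adjusted p = 5.13e-05) and 1.40-fold higher in DAF (0.49 ± 0.11, edgeR adjusted p = 0.0122). For Δ22 the log2 fold change of 0.29 ± 0.11 did not pass (edgeR adjusted p = 0.273), and neither did the difference between DAF and Δ22 (0.21 ± 0.11, edgeR adjusted p = 0.612). WT-EF exceeded DAF by 0.36 ± 0.11 with overlapping libraries (edgeR adjusted p = 0.0268), a call kept in 19 of 24 alternatives, and the call for DAF against iEF was kept in 21.

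MTF2, a Polycomb-like protein that brings PRC2 to unmethylated CpG-rich DNA (chr1:93544792-93604636, plus strand), was high in iLuc and WT-EF alone. It measured 128, 162 and 142 CPM in iLuc and 119.6, 174 and 160.0 CPM in WT-EF. The values were 73.8, 85.3 and 79.7 CPM in iEF, 73.6, 83.5 and 77.8 CPM in Δ22 and 77.2, 97.4 and 85.5 CPM in DAF. All 6 libraries with endo-EF or WT-EF lay above all 9 others, and the 2 sets of conditions overlapped within themselves. MTF2 was 1.80-fold higher in iLuc (log2 fold change 0.85 ± 0.08, edgeR adjusted p = 9.61e-07) and 1.88-fold higher in WT-EF (0.91 ± 0.08, edgeR adjusted p = 1.41e-06) than in iEF. WT-EF exceeded DAF 1.73-fold (edgeR adjusted p = 9.68e-06), whereas DAF and Δ22 each differed from iEF by less than 0.15 on the log2 scale and did not pass (edgeR adjusted p = 0.433 and 0.952). All 3 calls were kept in all 24 alternatives.

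Of the PRC1 genes, CBX2 had the largest fold change among the 10, and BMI1 had none that passed in the edgeR fit. CBX2, a chromodomain subunit that binds the PRC2 mark (chr17:77751947-77761782, plus strand), measured 42.2, 46.8 and 43.5 CPM in iLuc and 14.2, 17.1 and 18.6 CPM in iEF. WT-EF libraries spread widely at 18.6, 29.9 and 40.3 CPM, whereas Δ22 held 11.9, 16.3 and 10.8 CPM and DAF 10.5, 16.9 and 13.5 CPM. The lowest WT-EF library reached only the top of the iEF range, and the highest nearly reached iLuc. CBX2 was 2.67-fold higher in iLuc than in iEF (log2 fold change 1.42 ± 0.19, edgeR adjusted p = 2.17e-05) and 1.74-fold higher in WT-EF (0.80 ± 0.19, edgeR adjusted p = 0.00424). It was 2.15-fold higher in WT-EF than in DAF (edgeR adjusted p = 0.000489) and lower in WT-EF than in iLuc (-0.62 ± 0.18, edgeR adjusted p = 0.0287). Without replicate 2 of every condition the call for WT-EF against iEF was lost (adjusted p = 0.0525), and the call against iLuc was kept in 15 of 24 alternatives.

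BMI1, the RING-finger partner of the PRC1 ubiquitin ligase (chr10:22610028-22620413, plus strand), measured 66.7, 71.2 and 67.0 CPM in iLuc and 57.5, 53.1 and 60.6 CPM in iEF. WT-EF libraries held 64.2, 83.3 and 60.4 CPM, Δ22 libraries 50.1, 60.7 and 49.1 CPM, and DAF libraries 51.3, 65.1 and 55.9 CPM. Only iLuc was free of overlap with iEF, by a log2 fold change of 0.25 ± 0.11 that did not pass (edgeR adjusted p = 0.0719). The log2 fold change of WT-EF was 0.26 ± 0.11 against iEF (edgeR adjusted p = 0.0782) and 0.27 ± 0.11 against DAF (edgeR adjusted p = 0.0762). Each of these passed in 6 of 24 alternatives, the DESeq2 Wald test among them, and that of iLuc against iEF passed in 3. The read-through gene COMMD3-BMI1, which overlaps BMI1, had 0 counts in every library. Whether reads that fit both genes are missing from the BMI1 counts was not tested.

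**Figure D2:**
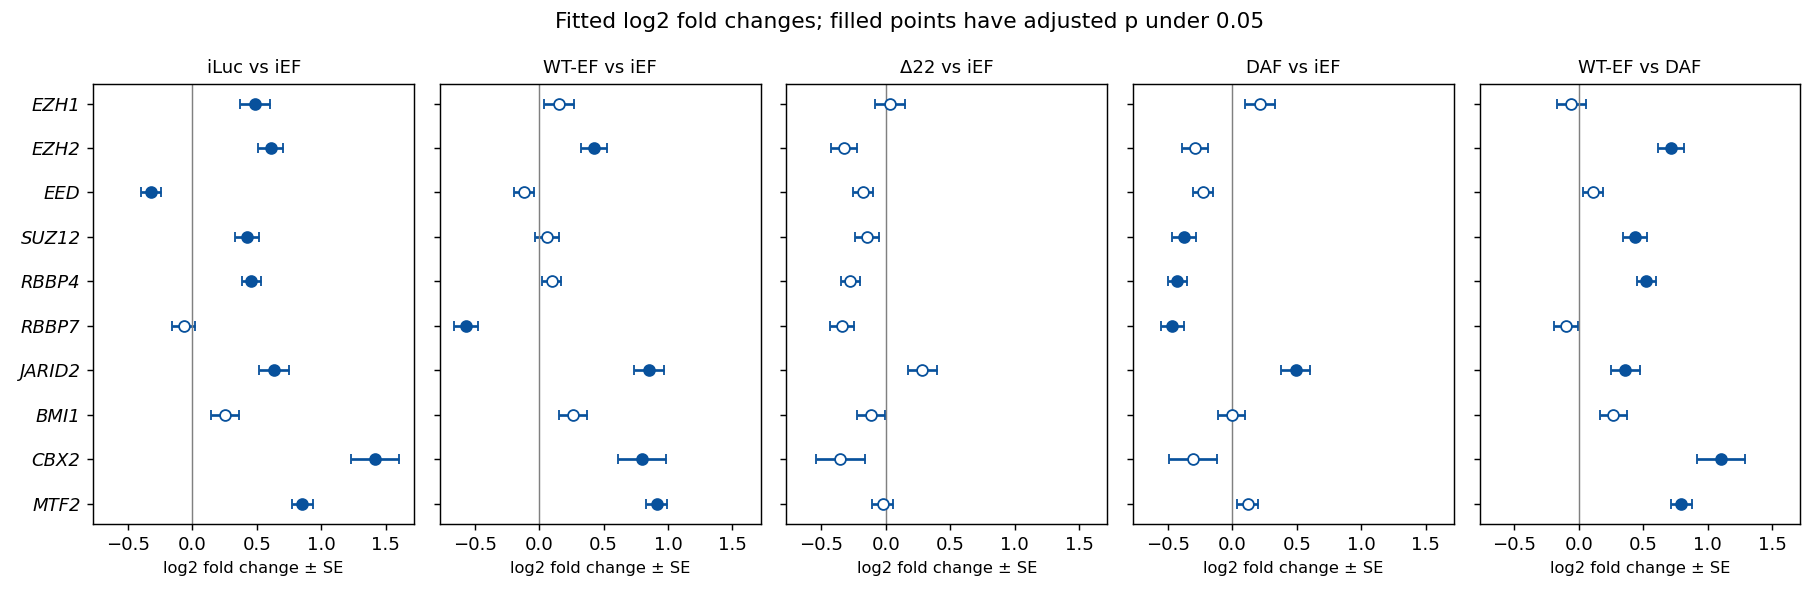
Fitted log2 fold changes (x axis) ± SE of the 10 Polycomb genes (y axis) in 5 comparisons from one edgeR fit of 15 libraries, with filled points where the adjusted p was under 0.05. MTF2 lies at 0.85 for iLuc and 0.91 for WT-EF against iEF, and RBBP7 at -0.56 for WT-EF.

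The rescue conditions were then set against each other. FLI1 itself was called lower in WT-EF than in DAF by edgeR (log2 fold change -0.47), and its part in the Polycomb values was not tested. WT-EF was higher than DAF for 6 of the 10 genes (EZH2, SUZ12, RBBP4, JARID2, CBX2 and MTF2; background 12.4%) and lower for 0 (background 16.1%), with a median log2 fold change of 0.40 over the 10. In this comparison 12 of 20 proliferation genes were also higher and 0 lower, with a median of 0.50, and their part in the Polycomb values was not tested. Of the 10 Polycomb genes, 7 were higher and 0 lower at an unadjusted p under 0.05, and DESeq2 called 7 higher and 0 lower. WT-EF was higher than iLuc for 0 of 10 genes (background 10.7%) and lower for 4 (SUZ12, RBBP4, RBBP7 and CBX2; background 9.03%), with 1 higher and 5 lower at an unadjusted p under 0.05 and 1 higher and 4 lower by DESeq2. DAF and Δ22 did not differ by edgeR for any of the 10 (background 0.948% higher and 0.379% lower), with 0 higher and 1 lower at an unadjusted p under 0.05 and 0 by DESeq2. Some counts against iEF and iLuc changed when a single library, or a replicate of every condition, was left out. Without replicate 2 of every condition, WT-EF against iEF gave 3 called genes and DAF against iEF gave 0, and DAF against iEF gave 2 without either iEF replicate 3 or DAF replicate 3. Without WT-EF replicate 1, or without replicate 1 or 2 of every condition, WT-EF against iLuc gave 1 called gene, and without iLuc replicate 1 or 2 it gave 2. Without Δ22 replicate 1 or WT-EF replicate 3, Δ22 against iEF gave 1.

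Levels were compared between genes only after division by the length of the MANE Select transcript, as CPM per kilobase. In iLuc cells the order was RBBP7 (100.1 ± 3.23 CPM per kilobase, SD), EZH2 (94.1 ± 4.30), MTF2 (35.3 ± 4.18), RBBP4 (28.1 ± 1.19), EED (25.2 ± 1.52), BMI1 (19.3 ± 0.712), JARID2 (12.5 ± 1.12), CBX2 (9.54 ± 0.508), SUZ12 (7.54 ± 0.204) and EZH1 (4.50 ± 0.320). RBBP7 and EZH2 overlapped between libraries and the other neighbors did not. In iEF cells RBBP7 stood at 105 ± 7.79, EZH2 at 61.7 ± 4.70 and EED at 31.4 ± 0.388 CPM per kilobase, so EED passed MTF2 (19.5 ± 1.41) and RBBP4 (20.5 ± 0.911), which overlapped each other. CBX2 fell to 3.60 ± 0.484 CPM per kilobase in iEF and there overlapped EZH1 at 3.22 ± 0.387. SUZ12 was below EED in every library on this scale.

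Ratios of 2 counts within a library do not depend on the scaling between libraries. With 3 libraries against 3, the smallest p that a two-sided exact permutation test allows is 0.1, so no ratio could reach 0.05, and over 28 such tests the adjusted value at that floor was 0.2 (Benjamini-Hochberg). The RBBP7/RBBP4 count ratio was 1.03 ± 0.0109 in iLuc and 0.939 ± 0.0550 in WT-EF (SD, n = 3), against 1.48 ± 0.0941 in iEF, 1.42 ± 0.198 in Δ22 and 1.45 ± 0.0805 in DAF. All 6 libraries with endo-EF or WT-EF lay between 0.896 and 1.04, and all 9 others between 1.24 and 1.63 (exact permutation p = 0.1 for iLuc and for WT-EF against iEF, p = 0.7 for Δ22 and 0.5 for DAF). WT-EF also lay below iLuc without overlap (exact permutation p = 0.1). EZH2/EZH1 was 12.0 ± 1.15 in iLuc, 11.1 ± 2.11 in iEF, 13.5 ± 2.71 in WT-EF, 8.56 ± 0.526 in Δ22 and 7.77 ± 0.381 in DAF, and DAF lay below iEF and below WT-EF without overlap (exact permutation p = 0.1 each).

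JARID2/MTF2, the balance of 2 accessory subunits found in different forms of PRC2, was 0.526 ± 0.0487 in iLuc, 0.612 ± 0.0663 in iEF and 0.587 ± 0.0735 in WT-EF. It was 0.758 ± 0.0690 in Δ22 and 0.791 ± 0.0748 in DAF, above iEF without overlap in both (exact permutation p = 0.1 each). For Δ22 the gap was very small, with its lowest library at 0.689 and the highest iEF library at 0.687. MTF2/PHF19, a ratio between MTF2 and its Polycomb-like relative that was chosen after the values were seen, was 5.24 ± 0.816 in iLuc and 5.73 ± 1.505 in WT-EF, against 1.21 ± 0.195 in iEF, 1.78 ± 0.368 in Δ22 and 2.45 ± 0.366 in DAF.

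**Figure D3:**
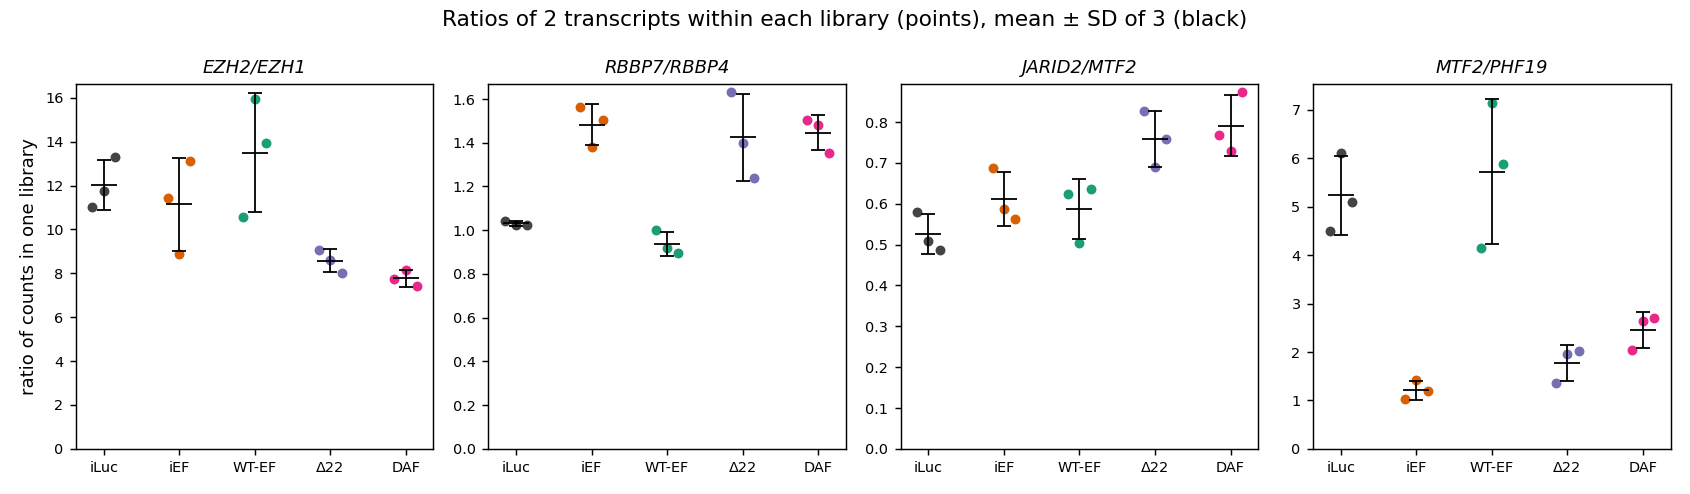
Ratios of the counts of 2 genes within each library (y axes, from 0), by condition, with points for libraries and black bars for the mean ± SD of 3; counts were not divided by length. RBBP7/RBBP4 separates iLuc and WT-EF (0.896 to 1.04) from iEF, Δ22 and DAF (1.24 to 1.63).

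The other genes of the 2 complexes moved in both directions. Of 28 further PRC2 and PRC1 genes tested, 10 were higher and 7 lower in iLuc than in iEF, 11 higher and 7 lower in WT-EF, 0 higher and 2 lower in Δ22, and 3 higher and 5 lower in DAF. Over all genes tested the shares were 19.5% higher and 22.1% lower in iLuc, 12.9% and 17.0% in WT-EF, 0.472% and 0.830% in Δ22, and 5.00% and 6.19% in DAF. PHF19, the Polycomb-like relative of MTF2, went the opposite way to it, from 66.3 ± 5.77 CPM in iEF to 27.6 ± 1.01 in iLuc (log2 fold change -1.26 ± 0.10, edgeR adjusted p = 1.79e-07) and 26.8 ± 2.28 in WT-EF (-1.31 ± 0.10, edgeR adjusted p = 4.73e-07). PHF19 was also lower in DAF, at 35.6 ± 3.35 CPM (-0.90 ± 0.10, edgeR adjusted p = 8.91e-05), and in Δ22, at 45.1 ± 8.22 CPM (-0.56 ± 0.10, edgeR adjusted p = 0.0142). It was thus lower than in iEF in all 4 conditions that kept endo-EF or received a cDNA.

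Among PRC1 genes, SCML2 and RNF2, which encode a Polycomb-associated reader and the main ubiquitin ligase subunit, were higher in iLuc (log2 fold changes 1.44 ± 0.13 and 0.92 ± 0.12) and in WT-EF (0.94 ± 0.13 and 0.62 ± 0.12). CBX8, a relative of CBX2, was higher in iLuc by 1.04 ± 0.15 and in WT-EF by 0.53 ± 0.15, where its libraries overlapped iEF. PCGF5, a relative of BMI1 in a variant form of PRC1, was lower in iLuc (-0.997 ± 0.16) and WT-EF (-0.96 ± 0.16). PHC2 was also lower in iLuc (-1.18 ± 0.08) and WT-EF (-0.60 ± 0.08), as was AUTS2 (-0.62 ± 0.13 in iLuc and -0.68 ± 0.13 in WT-EF). In DAF, RYBP (0.48 ± 0.10), BCOR (0.43 ± 0.10) and MGA (0.31 ± 0.07) were higher, and PHC1 (-0.81 ± 0.12), SCMH1 (-0.68 ± 0.17), AUTS2 (-0.67 ± 0.13) and PHC2 (-0.45 ± 0.08) were lower. RYBP and SCMH1 had the opposite direction in iLuc, with RYBP lower (-0.54 ± 0.10) and SCMH1 higher (0.62 ± 0.17) than in iEF. In WT-EF both went the same way as in DAF, with libraries that overlapped iEF. RYBP was higher there (0.29 ± 0.10, edgeR adjusted p = 0.0347) and SCMH1 lower (-0.56 ± 0.17, edgeR adjusted p = 0.0249). PHC1 was also lower in Δ22 (-0.55 ± 0.11, edgeR adjusted p = 0.0291).

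**Figure D4:**
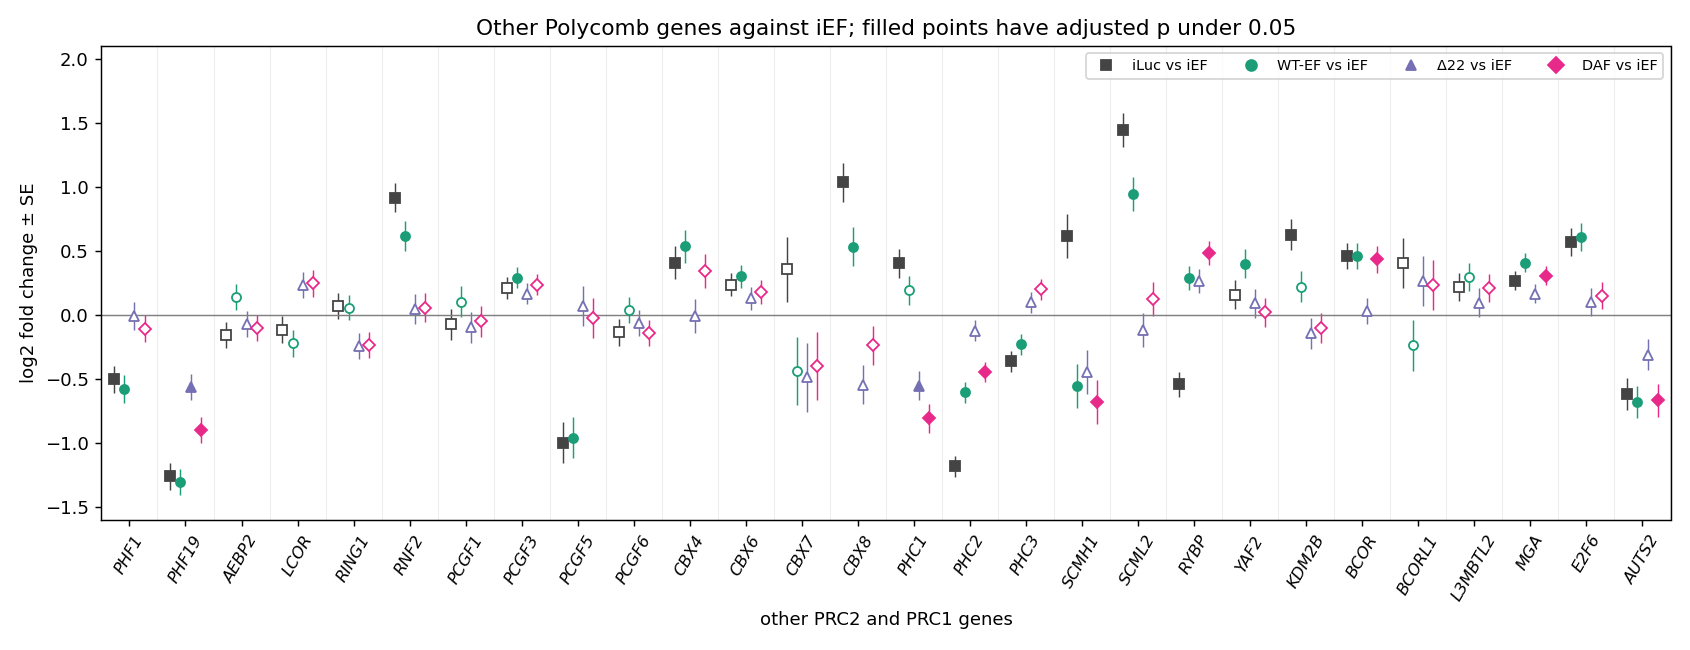
Log2 fold changes against iEF (y axis) ± SE of 28 other PRC2 and PRC1 genes (x axis) in iLuc (squares), WT-EF (circles), Δ22 (triangles) and DAF (diamonds), filled where the adjusted p was under 0.05. PHF19 lies below 0 in all 4 comparisons, and SCML2 reaches 1.44 in iLuc.

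The enzymes that act against Polycomb marks were tested as a list of 6, namely the lysine 27 demethylases KDM6A and KDM6B and the H2A deubiquitinase BAP1 with its partners ASXL1, ASXL2 and ASXL3. In iLuc against iEF 0 of them passed by edgeR (background 19.5% higher and 22.1% lower), with 1 lower at an unadjusted p under 0.05 and 1 lower by DESeq2. In WT-EF 3 were higher (background 12.9%), namely KDM6A (log2 fold change 0.32 ± 0.08, edgeR adjusted p = 0.00968), KDM6B (0.82 ± 0.24, edgeR adjusted p = 0.0180) and ASXL3, which had only 2 to 21 counts in a library. In DAF 2 were higher (background 5.00%), KDM6A (0.32 ± 0.08, edgeR adjusted p = 0.0232) and ASXL3. In Δ22 none passed by edgeR (background 0.472% higher and 0.830% lower), with 2 higher at an unadjusted p under 0.05 and 2 higher by DESeq2.

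EMP1, EPHB2, GFAP, GAP43 and NGFR are known from Ewing sarcoma cells as genes that are raised when EZH2 is depleted. Against iEF, 4 of them were lower (background 22.1%) and 1 was higher (background 19.5%) in iLuc. In WT-EF 3 were lower (background 17.0%) and 2 higher (background 12.9%). GFAP was among the lower genes in both, with only 8 to 11 counts in iLuc, 7 to 14 in WT-EF and 17 to 35 in iEF libraries. EMP1, an epithelial membrane protein, went from 323 ± 51.3 CPM in iEF to 21.1 ± 3.82 in iLuc (log2 fold change -3.94 ± 0.32, edgeR adjusted p = 1.62e-07) and 109.7 ± 64.2 in WT-EF (-1.63 ± 0.29, edgeR adjusted p = 0.000536). EPHB2, an ephrin receptor, was lower in iLuc by a log2 fold change of -1.20 ± 0.13 and in WT-EF by -1.40 ± 0.13. The neurotrophin receptor gene NGFR went the other way and was higher in iLuc (1.46 ± 0.22, edgeR adjusted p = 8.40e-05), WT-EF (1.95 ± 0.22, edgeR adjusted p = 1.24e-05) and DAF (1.61 ± 0.22, edgeR adjusted p = 0.000367). GAP43, a growth cone gene, was lower in iLuc (-2.34 ± 0.22) but higher in WT-EF (0.61 ± 0.21, edgeR adjusted p = 0.0364). In DAF 1 of the 5 was higher (background 5.00%) and 0 lower (background 6.19%) by edgeR. At an unadjusted p under 0.05, 2 were higher and 1 lower in DAF, and DESeq2 called 2 higher and 0 lower. In Δ22 none of the 5 passed by edgeR (background 0.472% higher and 0.830% lower), nor at an unadjusted p under 0.05 or by DESeq2 (0 in each).

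Proliferation genes differed between the conditions beside the Polycomb genes. Of 20 tested, 11 were higher and 0 lower in iLuc than in iEF, 1 higher and 3 lower in WT-EF, 0 higher and 7 lower in Δ22, and 0 higher and 19 lower in DAF. Over all genes tested the shares were 19.5% higher and 22.1% lower in iLuc, 12.9% and 17.0% in WT-EF, 0.472% and 0.830% in Δ22, and 5.00% and 6.19% in DAF. Their median log2 fold change against iEF was 0.28 in iLuc, -0.12 in WT-EF, -0.49 in Δ22 and -0.64 in DAF. At an unadjusted p under 0.05, 20 of these genes were lower in Δ22 and 19 in DAF, and DESeq2 called 13 and 19 lower. Their summed level was 5819.8 to 6208 CPM in iLuc, 4452 to 5425 in iEF, 4360.7 to 4714 in WT-EF, 3209 to 4160.2 in Δ22 and 3011 to 3481 in DAF. E2F2 was the proliferation gene that was higher in WT-EF than in iEF, 2.65-fold (edgeR adjusted p = 1.03e-05). EZH2, MTF2, JARID2 and CBX2 were also higher there, and the part of proliferation in these values was not tested. WT-EF against iLuc gave 0 higher (background 10.7%) and 13 lower (background 9.03%) of the 20 (median -0.36), beside 4 lower Polycomb genes.

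The genes whose log2 CPM followed EZH2 most closely over the 15 libraries, of 11780 genes averaging at least 100 counts, were BLM (Pearson r = 0.984), MCM10 (0.980), E2F2 (0.979), IQCC (0.979) and EXOSC9 (0.978). BLM encodes a DNA helicase, MCM10 a replication factor, E2F2 a cell cycle transcription factor that is also on the proliferation list, and EXOSC9 a subunit of the RNA exosome. BLM, for example, measured 131 ± 7.79 CPM in iLuc, 73.4 ± 4.15 in iEF, 106 ± 9.06 in WT-EF, 59.0 ± 4.48 in Δ22 and 53.3 ± 3.51 in DAF. Within the 10 genes, r with EZH2 was 0.949 for CBX2, 0.911 for RBBP4, 0.888 for MTF2, 0.840 for SUZ12, 0.777 for BMI1, 0.567 for JARID2, 0.498 for EZH1, 0.238 for RBBP7 and -0.243 for EED. These values describe 15 libraries that fall into 5 conditions and share library depth and scaling.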

How the data were processed

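RNA-seq counts from 15 libraries of A673 cells were used, with condition and replicate number taken from the labels. The counts deposited by the authors are whole numbers of reads per gene, made from paired-end reads with STAR and htseq-count (intersection-strict) on hg19, without normalization. The submitters' processing notes give STAR 2.5.1b. The authors also deposited counts adjusted with ComBat and their own fold changes and p-values from DESeq2, and neither table was used. A further 3 columns that match no label were not used.

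Genes averaging at least 1 count were kept (28793 of 57820). Library sizes were scaled by TMM, and 1 quasi-likelihood model with condition and replicate number was fitted to all libraries with edgeR 4.0.16 in R 4.3.3, with Benjamini-Hochberg adjustment over all genes tested in each of 7 comparisons and a threshold of 0.05. DESeq2 1.42.0 was an alternative. CPM uses the TMM-scaled library sizes, with a prior count of 2 for log2 CPM. The scripts were tested on simulated data. The replicate number is a block because the authors adjusted each set of replicates for batch effects. Deviations from the condition means correlated with a median r of 0.185 within a number (30 pairs, from -0.183 to 0.780) and -0.0842 between numbers (60 pairs). The labels do not say that libraries came from separate cultures, although the study's design scheme shows 1 round of knockdown and rescue as a replicate. The p-values measure the spread between these libraries of 1 cell line.

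The genes and lists were chosen with earlier results of these data known. Other Polycomb genes and opposing enzymes were named where they were among the 3 largest increases or decreases in iLuc, WT-EF or DAF against iEF, past the threshold and averaging at least 50 counts. Other genes of these lists named in the text and the MTF2/PHF19 ratio were chosen after their values were seen. Counts of EPOP, PCGF2 and PECAM1 were not analysed here, and EZHIP, CD3E and KRT5 did not pass the filter. Gene coordinates are GENCODE v44 on GRCh37. The htseq-count strand setting is not given in the sources used here, so reads of antisense genes may be included.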

Additional observations from a re-analysis of the deposited data

How the results depend on the processing

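Each of 27 called fold changes was recomputed under 24 alternatives, and 14 kept their call in every one. None of the 49 fold changes recomputed (the called ones and others of at least 0.15) changed direction. Without the replicate block the number of Polycomb genes called was 8, 5, 0, 4, 3, 6 and 0 for iLuc, WT-EF, Δ22 and DAF against iEF, WT-EF against iLuc and DAF, and DAF against Δ22, where the block gave 8, 5, 0, 4, 4, 6 and 0. Of these only CBX2 in WT-EF against iLuc was lost. For Δ22 against iEF, 0 called genes became 2 with the DESeq2 Wald test and 1 with no filter on low counts. In a fit of only the 6 libraries compared, WT-EF against iLuc went from 4 to 1 and DAF against Δ22 from 0 to 1. With 1 library or 1 replicate of all conditions left out, the counts ranged from 6 to 9, 3 to 6, 0 to 1, 0 to 4, 1 to 5, 5 to 7 and 0 to 0 in the same order. The cause of these changes was not tested. DESeq2's size factors and a filter at an average of 10 counts moved no count by more than 1.5 times. The EZH2/EZH1, RBBP7/RBBP4 and JARID2/MTF2 ratios were recomputed for iLuc, WT-EF and DAF against iEF and for WT-EF against DAF. Their differences moved by less than the spread between replicates with 1 added to each count and without each replicate. MTF2/PHF19 and the other comparisons of ratios were not recomputed. No group of 3 libraries was tested for outlying libraries. Each of the 10 genes had at least 298 counts in every library, and how depth limits the calls was not tested.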
